A study of Rattus norvegicus with 10 samples.

Results

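The transcriptome of muscle beneath the skin was compared between rats sampled 1 h after acupuncture and rats sampled 1 h after placebo. The comparison covered every transcript with at least 1 CPM (read counts scaled to a common library size, as deposited by the authors) in both libraries of either group, which were 9946 of the 17221 transcripts in the table. Of these, 9299 reached that minimum in both groups, 324 through AP_1h alone and 323 through PLA_1h alone. A transcript that entered through 1 group alone was lower in at least 1 library of the other group by that minimum itself, so counts and medians below are also given over members that reached it in both groups where this alters them much.

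Every animal was a female Wistar rat in which arthritis had been induced by immunisation with collagen, as a model of rheumatoid arthritis, and the animals before therapy (RA_0) carried the disease as well. AP animals had a short steel needle inserted and rotated on both sides of the lower spine and below the knee, and PLA animals had sterile saline injected into the peritoneum, away from those points, so the arms differed in the site and the route of the stimulus as well as in its kind. Tissue was taken from around the stimulated points, and all animals were shaved. The study's results call the sampled tissue dorsal and subcutaneous, while its methods name only tissue around the stimulated points. The sample labels do not say which point gave which library. The time of day and whether the animals had eaten are not given in the sources used here. There were 2 animals and 2 libraries in each group, and p-values therefore rest on the spread between single animals. RA_0 is shared by both arms, and its levels stand beside theirs only for orientation. The groups at 34 d (AP_34d and PLA_34d, 2 libraries each) were other animals.

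The 4 libraries at 1 h held between 6920430 and 8899521 counted reads, and 3 reads, the limit that a count of 0 allows, stood for between 0.297 and 0.526 CPM (counting error only). Across the members, AP_1h library 2 correlated more closely with PLA_1h library 1 (Pearson's r = 0.965) than with AP_1h library 1 (r = 0.952), and the PLA_1h libraries correlated with r = 0.956, so that whole profiles did not part by arm. These values describe libraries across transcripts, which are not independent replicates. The label of muscle was borne out by its defining transcripts, since Ckm, the muscle creatine kinase, stood at 32611 and 41230 CPM in the AP_1h libraries and at 20830 and 51430 CPM in the PLA_1h libraries. Of the 18 keratinocyte and skin marker transcripts in the table, 8 were at 0 in the 4 libraries and only Krt10 was a member, with 3.13 and 4.76 CPM in AP_1h and 2.38 and 3.86 CPM in PLA_1h.

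Skeletal muscle is a mosaic of slow, oxidative fibres and fast fibres, each with its own set of myosin heavy chains and metabolic enzymes, together with connective tissue, vessels, nerve and resident immune cells. Disturbance of the tissue is known to switch on immediate early transcription factors within the first hour, followed by chemokines and stress genes, and muscle also responds quickly to glucocorticoids and to the daily clock. The gene lists used here follow these classes.

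Promoter sequences were available for 18 of the 24 most separated transcripts described next, leaving aside the transcript listed as Hoxa10. Shown here are the 250 bases before the start of 3 transcripts that were higher in AP_1h (Cst7, Chac1 and Mmp12) and of 1 that was lower (Six2), chosen because Cst7 and Chac1 are discussed throughout and because Mmp12 and Six2 were the windows of the 18 with a match to the AP-1 motif. The sequences are from RefSeq, build GRCr8, written 5′ to 3′ on the strand of the gene. Cst7 lies at chr3:159857030-159857279 (+ strand), Chac1 at chr3:126795881-126796130 (+ strand), Mmp12 at chr8:12866402-12866651 (+ strand) and Six2 at chr6:14727808-14728057 (+ strand). The counted Six2 transcript lies on the - strand in the rn4 build that the authors used, so the window shown may not be its promoter. Capitals mark matches, on either strand, to CCAAT, to AP-1 (TGACTCA), to the E-box (CACGTG), to the CARE motif of Atf4 and C/EBP factors (TGATGNAAN) or to the TATA box, searched as TATAAA. The CRE motif (TGACGTCA) and the D-box (TTATGTAA) were also searched.
Cst7: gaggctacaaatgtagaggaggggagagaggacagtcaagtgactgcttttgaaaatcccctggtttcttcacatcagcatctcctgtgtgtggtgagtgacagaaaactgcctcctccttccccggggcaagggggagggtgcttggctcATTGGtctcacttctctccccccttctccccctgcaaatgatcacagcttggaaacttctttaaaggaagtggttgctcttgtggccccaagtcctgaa
Chac1: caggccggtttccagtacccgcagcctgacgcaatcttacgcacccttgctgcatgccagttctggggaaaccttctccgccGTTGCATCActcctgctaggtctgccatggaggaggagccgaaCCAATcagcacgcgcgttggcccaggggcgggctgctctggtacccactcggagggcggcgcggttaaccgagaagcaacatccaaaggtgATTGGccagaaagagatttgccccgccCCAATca
Mmp12: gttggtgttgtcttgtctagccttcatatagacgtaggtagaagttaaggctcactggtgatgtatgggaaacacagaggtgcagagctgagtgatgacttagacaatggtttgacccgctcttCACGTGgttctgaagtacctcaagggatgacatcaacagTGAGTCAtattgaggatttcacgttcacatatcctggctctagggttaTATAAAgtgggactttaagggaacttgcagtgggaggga
Six2: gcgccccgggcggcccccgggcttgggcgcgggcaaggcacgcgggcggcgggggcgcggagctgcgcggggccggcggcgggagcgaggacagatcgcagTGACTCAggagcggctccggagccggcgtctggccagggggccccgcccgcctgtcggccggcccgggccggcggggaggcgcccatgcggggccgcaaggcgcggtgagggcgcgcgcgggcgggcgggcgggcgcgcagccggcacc
The Chac1 window held a CARE match starting 168 bases before the start and 3 CCAAT matches, and the Mmp12 window an AP-1 match 87 bases and an E-box match 126 bases before the start. Over all 33469 promoter windows of the same length, 34.0% held CCAAT, 4.05% AP-1, 5.59% the E-box, 3.38% CARE and 12.9% TATA. Among the 18 windows, 7 held CCAAT, 2 AP-1, 4 the E-box, 2 CARE and 2 TATA, and none held CRE or the D-box, which 1.59% and 0.828% of all windows held. No motif overlapped another in the 4 windows shown, and a match describes letters, not binding.

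No member passed the test between AP_1h and PLA_1h. Limma on log2(CPM + 1) gave 0 transcripts with an adjusted p under 0.05 (0.0% of members), with 0.0637 as the smallest adjusted p, while 414 members (4.16%) had an unadjusted p under 0.05, of which 133 (1.34%) were higher and 281 (2.83%) lower in AP_1h. Limma-voom and edgeR's quasi-likelihood test gave 0 calls as well, with 439 (4.41%) and 450 (4.52%) at an unadjusted p under 0.05, while a fit of the 4 libraries alone gave 12 (0.121%) and DESeq2 39 (0.392%). The thresholds in the study's methods, an unadjusted p under 0.05 with at least a 2-fold difference and a mean of at least 1 CPM, were met by 269 members (2.7%), 100 higher (1.01%) and 169 lower (1.7%) in AP_1h. Of the former 27 and of the latter 28 had entered through 1 group. The count was 462 without AP_1h library 2 and 417 without PLA_1h library 1. Libraries of the 2 groups did not overlap for 3084 members (31.0%), with AP_1h above PLA_1h for 1410 (14.2%) and below it for 1674 (16.8%). An exact permutation of 2 libraries against 2 reaches 0.3333 at the lowest and so could not pass a threshold. Libraries that did not differ by arm would also be free of overlap in that share of transcripts, which the 31.0% did not exceed. Likewise, the 4.16% with an unadjusted p under 0.05 was not above the share that this threshold allows. The median log2 difference over all members was 0.01, and 51.2% of members had a positive one. Genes are therefore described by their values in each library.

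**Figure D1:**
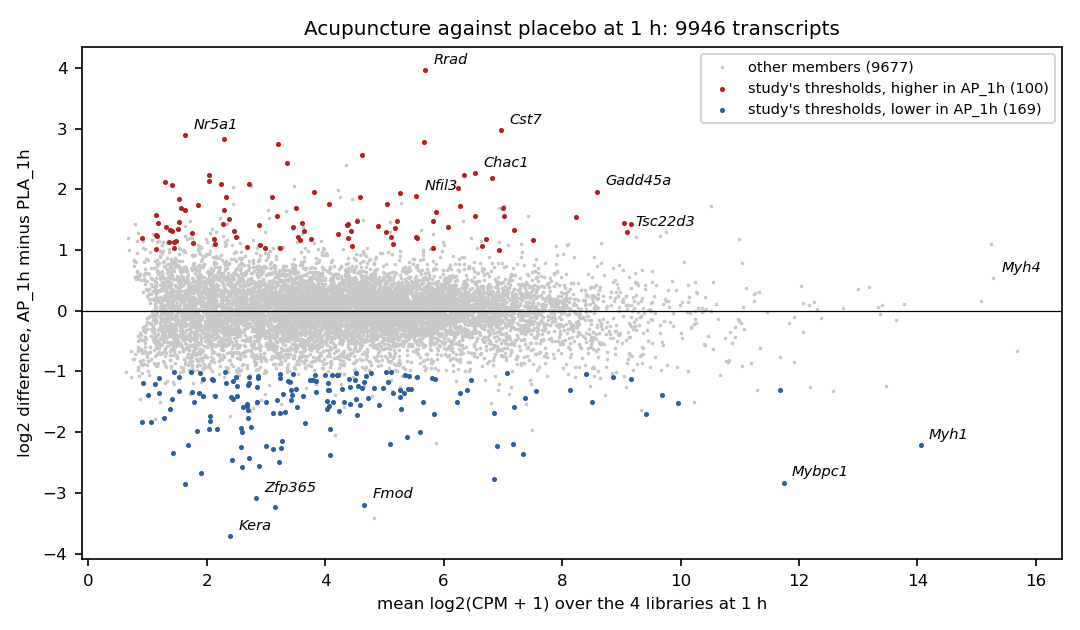
Log2 difference (AP_1h minus PLA_1h, vertical axis) against the mean log2(CPM + 1) over the 4 libraries at 1 h (horizontal axis), 1 point per member. Red points (100) and blue points (169) meet the study's thresholds, grey points do not, and the blue points extend to the most abundant transcripts, such as Mybpc1 and Myh1, while Myh4 lies at 0.54.

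Among the 12 transcripts higher in AP_1h with the smallest p, the opioid growth factor receptor-like gene Ogfrl1 stood at 113 and 90.5 CPM in AP_1h against 30.1 and 34.4 CPM in PLA_1h (log2 difference 1.62 ± 0.27 (SE), limma adjusted p = 0.290). Cst7, which encodes cystatin F, an inhibitor of lysosomal cysteine proteases in immune cells, stood at 416 and 293 CPM against 81.4 and 23.2 CPM (2.97 ± 0.57, adjusted p = 0.445). Before therapy Cst7 was at 5.01 and 13.96 CPM, so both PLA_1h libraries were above RA_0 and both AP_1h libraries further above it. Tsc22d3, the glucocorticoid-induced leucine zipper, was tight within each group, at 864 and 848 CPM in AP_1h and 357 and 338 CPM in PLA_1h (1.30 ± 0.30, adjusted p = 0.532).

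Regulators of the clock, of early transcription and of amino acid stress were also in this group. Nfil3, a transcriptional repressor of the clock's D-box genes, stood at 102 and 76.5 CPM against 19.8 and 26.9 CPM, with RA_0 at 21.2 and 17.5 CPM. Nr4a3, an orphan nuclear receptor of the immediate early class, stood at 15.2 and 10.2 CPM against 3.17 and 1.40 CPM. Chac1, which breaks down glutathione and is a target of Atf4, stood at 392 and 105 CPM against 35.4 and 48.3 CPM. The AP_1h libraries of Chac1 lay far apart, and RA_0 at 113 and 76.5 CPM overlapped them, whereas Nfil3 and Nr4a3 in AP_1h were above every PLA_1h and RA_0 library.

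Other members of the group were low. Timp1, the secreted inhibitor of metalloproteinases, stood at 25.4 and 9.38 CPM in AP_1h against 4.56 and 2.63 CPM in PLA_1h, and its gene overlaps Syn1 on the other strand, so its reads are uncertain. Mmp12, the macrophage elastase, stood at 4.65 and 3.64 CPM against 0.397 and 0 CPM, and was at 0 in both RA_0 libraries. Nr5a1, the steroidogenic nuclear receptor SF-1, stood at 2.92 and 17.4 CPM against 0.297 and 0 CPM. Serpina6, which encodes corticosteroid-binding globulin, stood at 9.30 and 6.16 CPM against 0.297 and 1.93 CPM. The posterior homeobox gene Hoxd10 (6.81 and 9.24 CPM against 1.69 and 0.351 CPM) and Mab21l1, a developmental cell fate gene (4.54 and 6.997 CPM against 1.09 and 0.877 CPM), completed the group. Of the 12, 5 (Mmp12, Nr5a1, Serpina6, Hoxd10 and Mab21l1) had entered through AP_1h alone, and AP_1h lay above both RA_0 libraries for 10.

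The 12 transcripts lower in AP_1h were led by RGD1561161, named Cspg4b today, which stood at 5.62 and 7.42 CPM in AP_1h against 40.4 and 34.9 CPM in PLA_1h, with RA_0 at 33.4 and 36.4 CPM (log2 difference -2.37 ± 0.28, limma adjusted p = 0.0637). It was the smallest adjusted p of all members. The span of this gene holds Snx18 and Hspb3 on the other strand, and the sources used here do not say if strand was used in counting. Zfp365, a zinc finger gene, stood at 0.649 and 2.66 CPM against 18.9 and 20.9 CPM (-3.09 ± 0.43, adjusted p = 0.145), with RA_0 at 12.9 and 11.6 CPM. Prrt4, a proline-rich transmembrane protein gene, differed from these, since it was low in RA_0 (0.477 and 1.63 CPM) and AP_1h (1.08 and 3.08 CPM) and high only in the PLA_1h libraries (14.9 and 45.8 CPM).

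Matrix and developmental genes were among the rest. Kera, which encodes keratocan, a small leucine-rich proteoglycan of tendon and cornea, stood at 0.649 and 0.280 CPM in AP_1h against 13.5 and 23.9 CPM in PLA_1h, and at 10.97 and 50.6 CPM in RA_0. Six2, a homeobox gene of connective tissue and kidney development, stood at 2.38 and 4.62 CPM against 19.7 and 20.01 CPM. The transcript listed as Hoxa10 stood at 1.08 and 1.54 CPM against 13.8 and 9.83 CPM, but its identifier carries the symbol Hoxa11 in the newer gene table. It overlaps RGD1564419 on the other strand (0.432 and 0 CPM against 6.05 and 4.21 CPM), so this pair may not be separate measurements.

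The nuclear receptor Esrrg, an activator of oxidative metabolism in muscle, stood at 3.78 and 3.92 CPM in AP_1h against 18.1 and 11.8 CPM in PLA_1h. Sqrdl, the mitochondrial sulfide quinone reductase named Sqor today, stood at 9.08 and 7.70 CPM against 33.8 and 22.6 CPM. Galnt5 (2.59 and 3.36 CPM against 24.5 and 13.5 CPM), which starts O-linked glycosylation, the unconventional myosin Myo10 (11.5 and 11.8 CPM against 42.3 and 29.8 CPM) and the PDZ domain gene Pdzd2 (8.43 and 6.86 CPM against 27.4 and 37.7 CPM) made up the group. Zfp365, Kera and RGD1564419 had entered through PLA_1h alone. In 11 of the 12, AP_1h lay below both RA_0 libraries, and in 8 PLA_1h overlapped RA_0.

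**Figure D2:**
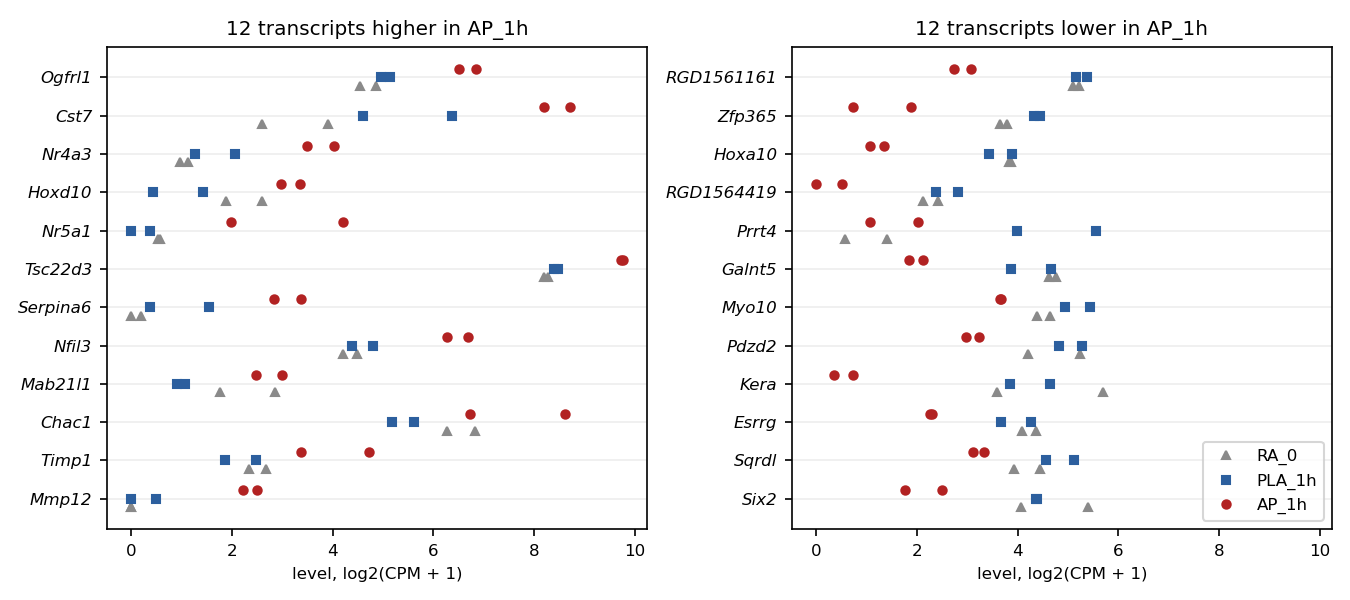
Level of the 12 transcripts with the smallest p in each direction, as log2(CPM + 1) on the horizontal axis, with 2 libraries each of AP_1h (red circles), PLA_1h (blue squares) and RA_0 (grey triangles). The transcripts were chosen because their AP_1h and PLA_1h libraries do not overlap, and in the right panel 8 of 12 have PLA_1h libraries that overlap RA_0.

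The position against RA_0 was counted for all transcripts that met the study's thresholds without overlap. Of 169 that were lower in AP_1h, 103 (60.9%) had AP_1h below both RA_0 libraries while PLA_1h overlapped RA_0, and 16 (9.47%) had PLA_1h above RA_0 while AP_1h overlapped it. Among all 1674 members whose libraries did not overlap in that direction, the shares were 40.4% and 15.8%. Of 98 that were higher, 47 (48.0%) had AP_1h above RA_0 while PLA_1h overlapped it and 18 (18.4%) had PLA_1h below RA_0 while AP_1h overlapped it, against 37.2% and 15.3% among all 1410. Both arms share the RA_0 libraries, so these counts place the groups and are not separate tests.

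Fibre type genes were among the most abundant transcripts whose libraries did not overlap. Myh1, the heavy chain of fast 2X fibres, stood at 6070 and 10230 CPM in AP_1h against 34886 and 38430 CPM in PLA_1h (log2 difference -2.22 ± 0.97, limma adjusted p = 1.00), with RA_0 at 36269 and 25920 CPM. Myh2, the heavy chain of fast oxidative 2A fibres, stood at 2938 and 5131 CPM against 9625 and 9713 CPM. The heavy chain of the fastest 2B fibres, Myh4, did not separate, at 34987 and 65741 CPM against 18648 and 58100 CPM.

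Of the developmental chains, embryonic Myh3 stood at 61.2 and 112 CPM against 270 and 234 CPM (-1.59 ± 0.36, adjusted p = 0.505) and neonatal Myh8 at 590 and 1050 CPM against 1367 and 1811 CPM. All 6 members of the developmental sarcomere list had a negative difference, with a median of -1.29. Of these, 5 lay below PLA_1h without overlap, beside 16.8% of all members. Of those 5, Chrng and Tnnt2 had entered through PLA_1h alone, and the members that reached 1 CPM in both groups had a median of -0.99 with 3 below PLA_1h without overlap. Chrng, the fetal acetylcholine receptor subunit, belonged to those 5 through 1 library, at 24.2 CPM in PLA_1h library 1 and 1.58 CPM in the other, against 1.19 and 0.980 CPM in AP_1h. In whole tissue, fewer fibres of a type and less RNA per fibre cannot be told apart.

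The slow sarcomere list had 10 of 13 members with a negative difference and a median of -0.94, and 7 lay below PLA_1h without overlap, beside 16.8% of all members. These 7 reached 1 CPM in both groups. Slow myosin Myh7, whose gene overlaps another, stood at 361 and 372 CPM in AP_1h against 2235 and 579 CPM in PLA_1h, and the slow light chain Myl3 at 231 and 307 CPM against 409 and 627 CPM. PLA_1h library 1 was the highest of the 4 for Myh7 and for 9 other members, such as the troponin gene Tnnt1 (500 CPM, against 136 CPM in PLA_1h library 2 and 105 and 131 CPM in AP_1h), and without it the median was -0.21. RA_0 was higher than either arm for Myh7, at 7398 and 4565 CPM. The fast sarcomere list, in contrast, had 12 of 17 members with a positive difference, a median of 0.09 and none above PLA_1h without overlap; its sign changed when AP_1h library 2 or PLA_1h library 1 was left out.

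Further genes of oxidative and intermediate fibres showed the same order, and were picked after their values were seen. Mybpc1, the slow type of myosin binding protein C, stood at 1228 and 1339 CPM in AP_1h against 11126 and 7493 CPM in PLA_1h, with RA_0 at 6682 and 9390 CPM (-2.83 ± 0.61, limma adjusted p = 0.481). Ldhb, the lactate dehydrogenase subunit of oxidative tissue, stood at 70.8 and 61.3 CPM against 305 and 308 CPM. In RA_0, Ldhb was above both arms, at 1099 and 512 CPM.

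**Figure D3:**
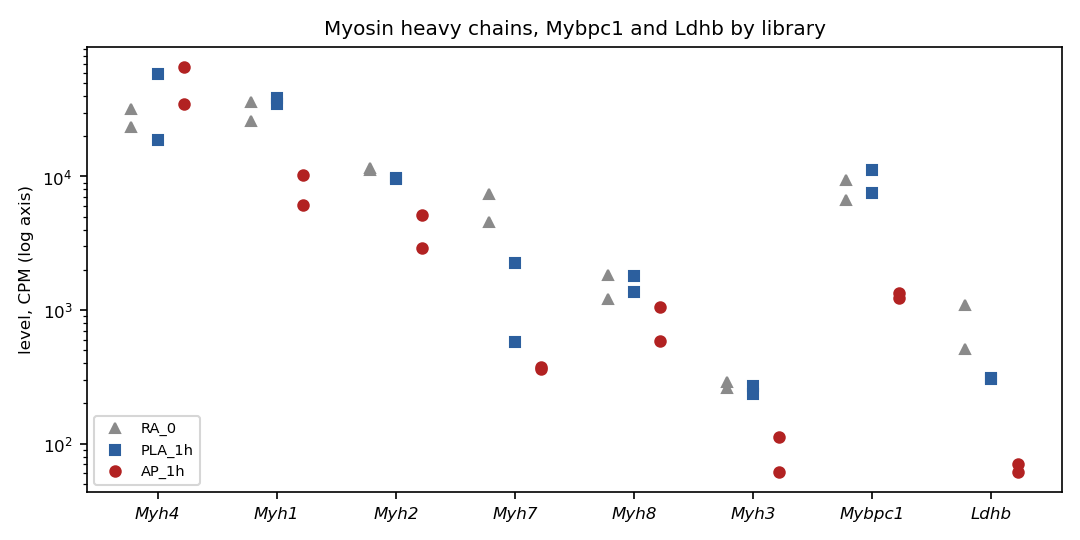
Level of 6 myosin heavy chains, Mybpc1 and Ldhb in CPM on a log axis, with 2 libraries each of RA_0 (grey triangles), PLA_1h (blue squares) and AP_1h (red circles). Libraries are to be compared within a gene; the AP_1h libraries lie below the others for every gene plotted but Myh4, where they overlap the PLA_1h libraries.

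The list of fasting and fat oxidation genes had 23 of 28 members with a negative difference, 14 below PLA_1h without overlap beside 16.8% of all members, and a median of -0.55 that stayed between -0.72 and -0.43 whichever of the 4 libraries was left out. Enzymes of mitochondrial beta oxidation were among them: a transcript of Hadha stood at 27.9 and 30.1 CPM in AP_1h against 60.7 and 117 CPM in PLA_1h (-1.51 ± 0.42, limma adjusted p = 0.749). The fatty acid transporter Cd36 stood at 84.1 and 105 CPM against 161 and 227 CPM. The same list held 3 members above PLA_1h without overlap, beside 14.2% of all members. Among them were the uncoupling protein Ucp3 (858 and 1008 CPM against 403 and 399 CPM) and Pdk4, the kinase that shuts off pyruvate oxidation (561 and 979 CPM against 526 and 443 CPM), both of which are best known as fasting genes. Glycolysis and glycogen genes had 10 of 23 members positive and a median of -0.06 whose sign depended on the scaling. Their most abundant members Pygm (10126 and 10637 CPM against 7623 and 15350 CPM) and Eno3 (4525 and 10704 CPM against 5845 and 7832 CPM) overlapped.

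Of 5 tendon markers measured, 4 lay below PLA_1h without overlap, beside 16.8% of all members. Of these, Tnmd, Chad and Kera had entered through PLA_1h alone. The median of -2.68 (-3.19 to -2.17 over leaving out each library) is the value of Chad, and over Fmod and Scx, the members that reached 1 CPM in both groups, the median was -1.12. Fmod, which encodes the collagen-binding proteoglycan fibromodulin, stood at 10.8 and 4.90 CPM in AP_1h against 53.1 and 107 CPM in PLA_1h, and chondroadherin, Chad, at 0.541 and 0.420 CPM against 5.65 and 12.5 CPM. The tenomodulin gene Tnmd stood at 0.216 and 0.420 CPM against 1.59 and 6.67 CPM. The exception was Scx, the tendon transcription factor, at 50.9 and 33.0 CPM against 23.7 and 18.3 CPM, whose gene overlaps another. The gene of Chad overlaps Acsf2 on the other strand. RA_0 spread widely for this class, as for Fmod at 37.7 and 199 CPM.

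Markers of other cells differed in several directions. All 4 red blood cell markers measured lay below PLA_1h without overlap, beside 16.8% of all members (median -0.83). They include the haemoglobin genes Hba-a2 (151 and 117 CPM against 172 and 352 CPM) and Hbb (62.1 and 95.3 CPM against 115 and 154 CPM). The red blood cell list summed to 293 and 293 CPM in AP_1h against 400 and 687 CPM in PLA_1h. Haemoglobin genes have near-identical copies, so the split of reads among them is uncertain. Adipocyte markers had 7 of 9 members with a negative difference and a median of -0.97 (-0.60 without Lep, which entered through PLA_1h alone), with Adipoq, the adipocyte hormone adiponectin, at 3.89 and 1.82 CPM against 21.1 and 12.6 CPM. Thrsp, a lipogenic regulator of the same list, went the other way, at 388 and 44.2 CPM against 22.7 and 14.7 CPM. Summed levels of the adipocyte list overlapped (705 and 314 CPM against 775 and 314 CPM).

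Vessel and nerve markers separated little. The endothelial list had a median of -0.08, although the vascular growth factor receptor Flt1 stood at 20.8 and 17.6 CPM against 31.9 and 41.9 CPM and the angiopoietin gene Angpt1 at 2.05 and 6.44 CPM against 21.6 and 7.02 CPM. Schwann and nerve markers had a median of -0.52 with no member free of overlap, and Pmp22 stood at 87.6 and 68.6 CPM against 146 and 66.7 CPM. The part that tendon, blood or fat in the excised piece had in any other difference was not tested.

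Immediate early factors had a median of 0.89, and 25 of the 28 members had a positive difference, but only 6 lay above PLA_1h without overlap, beside 14.2% of all members. Without the 3 members that had entered through AP_1h alone, 4 lay above it and the median was 0.64. The level came largely from 1 library: the list summed to 4377 CPM in AP_1h library 1, and to 1252 CPM in AP_1h library 2 against 1620 and 1308 CPM in PLA_1h. Fos stood at 137 and 37.1 CPM in AP_1h against 40.0 and 9.83 CPM in PLA_1h, and Junb at 526 and 91.1 CPM against 126 and 35.3 CPM. Without AP_1h library 1 the median of the list was 0.09. Atf3, a stress-induced repressor, was among the few that separated, at 37.6 and 29.0 CPM against 18.4 and 8.599 CPM. Fosl1 stood at 2.81 and 6.86 CPM against 0.991 and 0.175 CPM, but had entered through AP_1h alone, so its separation owes in part to that minimum. For Atf3 both AP_1h libraries were also above RA_0 (15.7 and 23.0 CPM). The list as a whole summed to 1567 and 2940 CPM in RA_0, so RA_0 library 2 was above AP_1h library 2 and both PLA_1h libraries. Fos stood at 21.7 and 123 CPM in RA_0, which overlapped AP_1h.

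Chemokines and their receptors had a median of 0.71, and -0.03 without AP_1h library 1. Of their 20 members 7 lay above PLA_1h without overlap, beside 14.2% of all members. However, 5 of these had entered through AP_1h alone, Ccl7 and Ccl11 among them, and over members that reached 1 CPM in both groups the median was 0.21. Cxcl13, which recruits B cells, stood at 33.8 and 15.5 CPM against 4.26 and 1.40 CPM, Ccl7, which recruits monocytes, at 13.7 and 5.46 CPM against 2.48 and 0.526 CPM, and Ccl11, which recruits eosinophils, at 3.68 and 1.12 CPM against 0.595 and 0.526 CPM. In the interleukin 1, TNF and NF-kB list (median 0.43, and -0.20 without AP_1h library 1), the receptor antagonist Il1rn, which entered through AP_1h alone, stood at 23.5 and 5.88 CPM against 1.49 and 0.351 CPM. The interleukin 6 family kept a positive median in each case (0.68, and 0.31 without AP_1h library 1), and 7 of its 13 members lay above PLA_1h without overlap, beside 14.2% of all members. Lcn2 was 1 of the 7 and had entered through AP_1h alone. Its feedback inhibitor Socs3 stood at 39.1 and 11.8 CPM against 9.02 and 1.93 CPM, the signal transducer Stat3 at 190 and 205 CPM against 131 and 102 CPM, and the acute phase gene Lcn2 at 10.9 and 1.40 CPM against 0.793 and 0.526 CPM.

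All 14 macrophage markers measured had a positive difference (median 0.67), yet only 2 lay above PLA_1h without overlap, near the 14.2% of all members. These were Lyz2 and Aif1, both of which overlap another gene. The summed level of the list was 422 CPM in AP_1h library 1 and 157 CPM in library 2, against 182 and 139 CPM in PLA_1h. All 8 MHC class II genes, which present antigen, were positive (median 0.81), and 4 lay above PLA_1h without overlap, beside 14.2% of all members. Cd74 stood at 442 and 135 CPM against 153 and 148 CPM and RT1-Da at 184 and 64.8 CPM against 71.8 and 48.1 CPM. Without AP_1h library 1 the medians were 0.04 and 0.11. The most abundant macrophage genes, the complement genes C1qb (60.9 and 18.8 CPM against 21.3 and 24.2 CPM) and C1qc (59.1 and 25.2 CPM against 25.8 and 26.3 CPM), overlapped. Neutrophil, T cell, B cell and mast cell lists had few members each, which do not allow a description of the class; of these Cd4 stood at 9.73 and 2.94 CPM against 7.73 and 3.51 CPM, Cd8a at 4.86 and 1.12 CPM against 1.49 and 0.526 CPM, Cd22 at 1.41 and 1.68 CPM against 0.793 and 0.175 CPM and Tpsb2 at 2.59 and 1.82 CPM against 0.991 and 2.46 CPM. The interferon list had 12 of 22 members positive and a median of 0.04, and B2m, the light chain of MHC class I, stood at 1038 and 1714 CPM against 1565 and 1067 CPM.

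**Figure D4:**
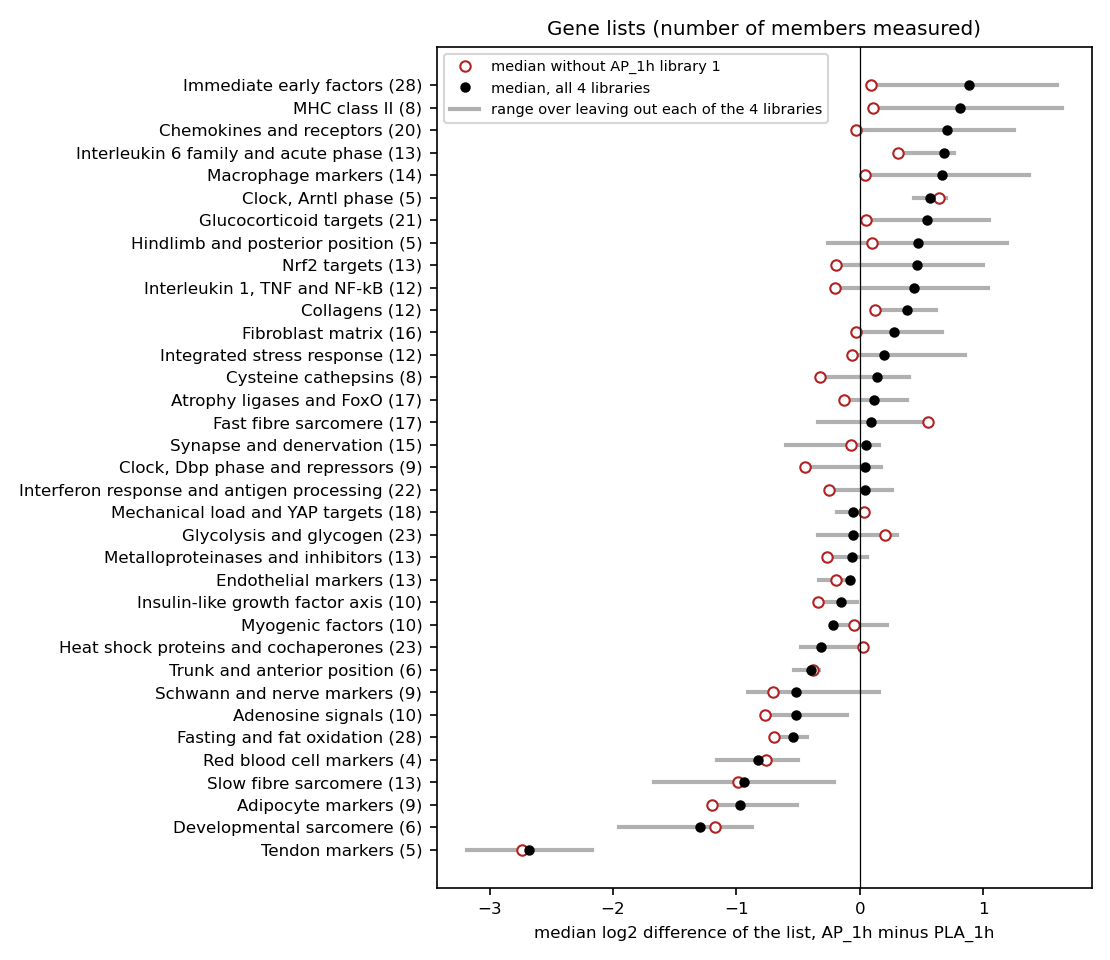
Median log2 difference (AP_1h minus PLA_1h) of each list with at least 4 members measured, with their number in brackets. Black points use all 4 libraries, grey bars span the medians when each of the 4 libraries is left out, and open red circles are without AP_1h library 1; the tendon median is that of Chad, which entered through PLA_1h alone, and the immediate early median goes from 0.89 to 0.09 without that library.

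Glucocorticoid targets had 14 of 21 members positive, 7 above PLA_1h without overlap beside 14.2% of all members (6 without Lcn2) and a median of 0.55, which was 0.05 without AP_1h library 1. Tsc22d3 separated cleanly, as given above, while Fkbp5, the cochaperone that limits the receptor, stood at 239 and 149 CPM in AP_1h against 108 and 154 CPM in PLA_1h, with RA_0 at 21.5 and 21.7 CPM, so that both arms were above the animals before therapy. The metallothionein genes Mt2A (618 and 88.9 CPM against 80.2 and 61.2 CPM) and Mt1a (426 and 41.1 CPM against 68.5 and 32.3 CPM) were high mainly in AP_1h library 1. Both belong to the Nrf2 target list, whose median was 0.47, and -0.19 without AP_1h library 1.

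The clock genes that peak with Arntl had 4 of 5 members positive and a median of 0.57, between 0.44 and 0.70 whichever library was left out. Arntl, the core activator, stood at 22.6 and 24.9 CPM against 17.2 and 14.2 CPM, and the repressor Cry1 at 25.6 and 25.9 CPM against 11.9 and 18.1 CPM. Of the opposite phase, Nr1d1, the nuclear receptor that represses Arntl, stood at 13.7 and 9.24 CPM against 23.2 and 21.6 CPM, although its gene overlaps Thra on the other strand. That list had a median of 0.04, and Dbp stood at 167 and 81.3 CPM against 137 and 181 CPM. In RA_0, Arntl stood at 2.62 and 3.86 CPM, below both arms, and Dbp at 426 and 418 CPM, above both arms. RA_0 for Cry1 (14.3 and 19.5 CPM) overlapped PLA_1h. Sampling times of day were not given, so they cannot be told apart from the arm.

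In the integrated stress response, 9 of 12 members were positive (5 had entered through 1 group), but the median was 0.19 and only Chac1 had an unadjusted p under 0.05 in that direction. Atf5, a factor of the same pathway, stood lower at 56.3 and 46.6 CPM in AP_1h against 96.6 and 85.5 CPM in PLA_1h, and Atf4 overlapped. Heat shock proteins had 15 of 23 members negative and 7 below PLA_1h without overlap, beside 16.8% of all members (median -0.32, and 0.03 without AP_1h library 1). The lens and muscle chaperone Cryab stood at 1592 and 1477 CPM against 1940 and 4302 CPM, and Hsp90ab1 at 1753 and 1386 CPM against 2155 and 2364 CPM.

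Load sensing genes had no common direction (8 of 18 positive). Tnfrsf12a, the receptor of the cytokine TWEAK, stood at 37.2 and 66.6 CPM against 16.9 and 23.0 CPM (1.30 ± 0.36, limma adjusted p = 0.749), and the channel gene listed as Fam38a, named Piezo1 today, at 88.8 and 41.4 CPM against 41.1 and 10.5 CPM. Piezo1 is the mechanically gated cation channel, but the transcript overlaps Ctu2 on the other strand. In the opposite direction, Csrp3, a Z-disc sensor of stretch, stood at 25.1 and 197 CPM against 289 and 469 CPM, and the channel gene Trpc1, which entered through PLA_1h alone, at 0.324 and 0.560 CPM against 2.58 and 2.11 CPM.

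Genes of muscle maintenance were mixed too. Myf6, the myogenic factor of mature fibres, stood at 821 and 915 CPM in AP_1h against 407 and 248 CPM in PLA_1h (1.44 ± 0.44, limma adjusted p = 0.814), with RA_0 at 179 and 144 CPM. The list of myogenic factors had a median of -0.21. Gadd45a, a stress and denervation gene, stood at 1109 and 526 CPM against 355 and 107 CPM, and the synapse list as a whole had a median of 0.05. Of the ligases of atrophy (median 0.11), Trim63, the sarcomere ligase MuRF1, stood at 2666 and 680 CPM against 468 and 646 CPM, and Nedd4 at 1159 and 1466 CPM against 1230 and 758 CPM. The insulin-like growth factor axis had a median of -0.15, with Igfbp5 at 60.2 and 95.3 CPM against 317 and 112 CPM and Igf2r at 132 and 127 CPM against 183 and 132 CPM.

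Among matrix genes, 10 of 12 collagens were positive with a median of 0.38, and the fibrillar Col3a1 stood at 1178 and 746 CPM against 388 and 313 CPM, while Col1a1 (878 and 397 CPM against 238 and 552 CPM) overlapped. Of 13 members of the metalloproteinase list, 5 lay above and 2 below PLA_1h without overlap, beside 14.2% and 16.8% of all members, around a median of -0.07. Mmp12, Mmp23 and Adamts4 had entered through AP_1h alone, which leaves 2 above and 2 below. Beside Mmp12 and Timp1, the aggrecanase Adamts4 stood at 6.49 and 3.08 CPM against 0.991 and 0.526 CPM. Fibroblast matrix genes had a median of 0.27 (-0.04 without AP_1h library 1), and Sparc (709 and 496 CPM against 370 and 838 CPM) and Dcn (462 and 392 CPM against 476 and 261 CPM) overlapped. Cystatins other than Cst7 did not separate, and the cathepsins they inhibit had a median of 0.14, with Ctsl1 at 867 and 230 CPM against 348 and 412 CPM and Ctsb at 310 and 181 CPM against 274 and 383 CPM.

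Positional genes differed within their own families. Besides Hoxd10, its neighbour Hoxd9 stood higher in AP_1h (25.9 and 27.3 CPM against 8.62 and 4.21 CPM), while the transcript listed as Hoxa10 stood lower. The hindlimb factors Pitx1 and Tbx4 were not members: Pitx1 stood at 0.324 and 0.140 CPM in AP_1h, at 8.92 CPM in PLA_1h library 1 and at 0.176 CPM in library 2, and Tbx4 at 0 CPM in both AP_1h libraries against 2.08 and 0.526 CPM. Trunk genes had a median of -0.40, with Tbx15 at 119 and 203 CPM against 222 and 227 CPM and Hoxc4 at 6.81 and 9.10 CPM against 3.47 and 8.07 CPM. These genes mark where on the body tissue comes from, and the site of each sample and the arm cannot be told apart.

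The study followed 8 genes further, of which 6 were members and Gjb2 alone did not overlap. It measured Adora2a, Adora3, Ada, S100a8 and S100a9 as protein in blood serum. Fos, Wnt5b and Gjb2 were measured as RNA in cultured synovial cells given serum. Tissue, time and groups compared were thus different, and the muscle RNA values here are no check of those results. Gjb2 and S100a8 had entered through PLA_1h alone. The adenosine receptor Adora2a stood at 7.89 and 3.22 CPM in AP_1h against 7.34 and 10.7 CPM in PLA_1h, and Ada, which degrades adenosine, at 17.2 and 4.62 CPM against 6.64 and 4.04 CPM. The alarmins S100a8 (3.89 and 0.420 CPM against 2.97 and 3.69 CPM) and S100a9 (9.95 and 1.96 CPM against 6.74 and 11.4 CPM) overlapped as well. Gjb2, the gap junction gene connexin 26, stood at 0.216 and 0 CPM against 1.39 and 1.05 CPM, and Adora3 and Wnt5b did not exceed 0.397 and 0.694 CPM in any of the 4 libraries. The adenosine list had a median of -0.52, and its most abundant members Ampd1 and Adk overlapped, Adk at 57.0 and 77.4 CPM against 71.1 and 89.3 CPM.

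The medians of the study's 7 gene sets of wound healing, inflammation and epithelial-mesenchymal transition stayed close to the median of all members. The study tested these sets for enrichment, with genes that differed after against before therapy. Medians between the arms are another measure. The medians of the sets lay between -0.10 (EMT.T2, 58 members) and 0.11 (InflGO, 271 members). The sets for mechanical stress (Mec.E., 36 members, 3 above and 10 below PLA_1h without overlap) and early healing (Heal.E., 65 members, 3 above and 19 below) had medians of -0.02 and -0.08. Of those below, 9 and 15 had reached 1 CPM in both groups. Of all members, 14.2% lay above and 16.8% below without overlap. For EMT (209 members), whGO (224 members) and rwGO (409 members) the medians were 0.00, 0.07 and 0.05. Without TMM factors, which move the median of all members to 0.10, the median of Mec.E. was 0.08.

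The animals at 34 d shared no library with those at 1 h, so the arms could be compared again. Of 100 transcripts that met the study's thresholds as higher at 1 h, 38 (38.0%) had both AP_34d libraries above both PLA_34d libraries and 13 had them below, beside 16.2% and 14.2% of all members. Of 169 that were lower at 1 h, 46 (27.2%) had AP_34d below and 15 (8.88%) had it above. The thresholds were met at both times in the same direction by 28 transcripts (16 higher, 12 lower) and in opposite directions by 5. Both comparisons came from the same fit, with the spread of each transcript pooled over all 10 libraries. A transcript with a small pooled spread could thus pass more easily at both times, and these counts are not independent. The share of all members that met the thresholds at 34 d is not given here. Limma gave 0 calls at 34 d as well (524 members, 5.27%, with an unadjusted p under 0.05, and 174 calls over all transcripts without PLA_34d library 2), and 0 for the difference between the times (396 members, 3.98%, unadjusted). Across all members the differences at 1 h and 34 d were hardly related (r = 0.07 over 9946 transcripts, which are not independent).

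Of the 12 transcripts higher at 1 h, 8 also separated upward at 34 d and none downward. Chac1 stood at 268 and 134 CPM in AP_34d against 13.6 and 15.5 CPM in PLA_34d (log2 difference 3.62, limma adjusted p = 0.177), Tsc22d3 at 368 and 397 CPM against 209 and 223 CPM, Ogfrl1 at 45.9 and 47.4 CPM against 24.3 and 24.3 CPM, and Nfil3 at 90.8 and 34.7 CPM against 17.6 and 29.0 CPM. Cst7 kept the order at a far lower level, with 22.1 and 17.3 CPM against 10.3 and 13.5 CPM. Of the 12 that were lower, 5 separated downward and Sqrdl upward at 34 d. Zfp365 stood at 6.25 and 3.14 CPM against 15.4 and 17.3 CPM and RGD1561161 at 33.8 and 36.7 CPM against 55.0 and 48.8 CPM.

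Tnfrsf12a met the thresholds at both times, and stood at 58.0 and 50.9 CPM in AP_34d against 6.51 and 9.81 CPM in PLA_34d (log2 difference 2.62, limma adjusted p = 0.147). Rrad, a small GTPase that dampens calcium channels, was picked after its values were seen, because its difference at 1 h was the highest of all members. It stood at 457 and 89.7 CPM in AP_1h against 25.5 and 5.44 CPM in PLA_1h (3.96 ± 1.19, limma adjusted p = 0.757) and at 43.7 and 380 CPM in AP_34d against 16.5 and 3.84 CPM in PLA_34d. The libraries of each group lay far apart for Rrad, and the AP libraries were above the PLA libraries at both times. The fibre and tendon genes did not keep their order: Myh1 stood at 32876 and 25877 CPM in AP_34d against 21230 and 29350 CPM in PLA_34d, Mybpc1 at 7695 and 8986 CPM against 8666 and 7777 CPM, and Kera at 25.2 and 18.8 CPM against 30.1 and 6.82 CPM. Cxcl13 had a negative difference at 34 d through PLA_34d library 1 alone (58.0 CPM, against 2.70 CPM in library 2 and 2.93 and 1.34 CPM in AP_34d).

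**Figure D5:**
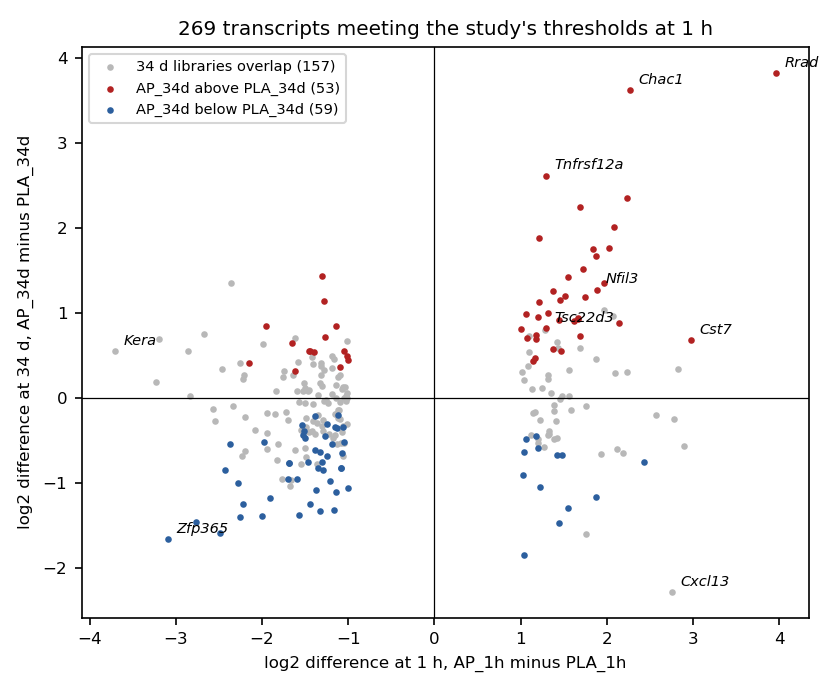
Log2 difference between acupuncture and placebo at 1 h (horizontal axis) and at 34 d (vertical axis) for the 269 transcripts that met the study's thresholds at 1 h, which leaves the middle of the horizontal axis empty. Red points (53) have both AP_34d libraries above both PLA_34d libraries, blue points (59) below, and grey points (157) overlap; red points gather at the upper right, with Chac1, Tnfrsf12a and Rrad.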

How the data were processed

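RNA-seq libraries of 2 animals per group were sequenced by the authors. The submitters' processing notes name CASAVA 1.8.2, cutadapt 1.2.1, Bowtie2 2.1.0, HTSeq 0.5.4p3, edgeR 3.4.2 and the rn4 build. The authors deposited a signal per transcript, read counts scaled to CPM with edgeR's TMM factors, and every value came out as a whole number of reads within 0.01 reads. The sources used here do not say if strand was used, which leaves values of overlapping genes uncertain.

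The 10259 transcripts at or above 1 CPM in each library of some group were tested on log2(CPM + 1) with limma 3.58.1 in R 4.3.3 (trended eBayes, all 10 libraries, 5 residual and 5.14 prior degrees of freedom) and p-values were adjusted by Benjamini-Hochberg over all of them. Fold differences on this scale understate those of low transcripts. Recovered reads were also tested with edgeR 4.0.16, limma-voom and DESeq2 1.42.0. Named by rule were the 12 transcripts per direction with the smallest p that met the study's thresholds without overlap, and the study's followed genes. List members with the smallest unadjusted p under 0.05 were also named, or the most abundant members where a list had none. Other genes, such as Junb, Socs3, Stat3, Fkbp5 and Arntl, were picked as examples outside these rules. Only some of them are marked as picked after their values were seen. Members and lists were chosen with earlier results of these data known. Gene names follow the deposited table, and 9258 members (93.1%) were matched in the GRCr8 gene table. Limma, limma-voom and edgeR were tried on simulated counts for the contrast at 1 h. DESeq2, the fit of the 4 libraries alone, the study's thresholds, the counts without overlap and the list medians were not. Figures were drawn with matplotlib 3.10.9.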

Additional observations from a re-analysis of the deposited data

How the results depend on the processing

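The 0 calls between AP_1h and PLA_1h held under all alternatives but 3: DESeq2 gave 39, a filter at a mean of 5 CPM gave 1 and the 4 libraries alone gave 12. They stayed at 0 to 0 when any library was left out. The 269 transcripts that met the study's thresholds became 165 with a pseudocount of 4, and ranged from 249 to 462 over leaving out each library, with 417 (223 higher, 194 lower) without PLA_1h library 1 and 462 without AP_1h library 2. Calls at 34 d ranged from 0 to 174. Replicate numbers did not pair the samples (correlations of deviations from -0.464 to 0.446, and -0.117 between AP_1h and PLA_1h). A replicate block gave 0 calls and 276 transcripts by the study's thresholds, and the crossed pairing, chosen after seeing the data, gave 0 and 277.

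Some log2 differences turned direction when 1 library was left out, and are given as the range over leaving out each library. The sign turned without AP_1h library 1 in the range from -0.72 to 1.19 for Ctsl1, from -0.19 to 3.15 for Mt1a, from -0.047 to 1.15 for C1qc, from -0.26 to 1.38 for C1qb, from -0.15 to 1.55 for Cd74 and from -0.14 to 1.55 for Ada. Without PLA_1h library 2 the sign turned, in ranges from -0.56 to 0.45 for Pygm and from -0.16 to 0.71 for Dcn. Without AP_1h library 2 and without PLA_1h library 1 it turned in the range from -0.58 to 0.66 for Eno3. Without AP_1h library 1 and without PLA_1h library 1 it turned in the range from -0.50 to 0.68 for Sparc. The sign turned without AP_1h library 2 and without PLA_1h library 2 in the range from -0.32 to 0.41 for B2m. The sign turned without AP_1h library 1 and without PLA_1h library 2 in the range from -0.67 to 0.77 for Cd4. Without PLA_1h library 1 alone it turned, in ranges from -0.12 to 0.68 for Tpsb2, from -0.91 to 0.21 for Pmp22 and from -0.031 to 0.99 for Hoxc4. The sign turned without AP_1h library 2 in the range from -1.60 to 0.18 for S100a8 and from -1.73 to 0.16 for S100a9. Pygm also turned with other scalings, to 0.017 when totals omitted the 20 most abundant transcripts, 0.043 without TMM factors and 0.23 with quantile normalization. The cause was not tested beyond the library left out. The 2 libraries per group and depth limit what can be said of transcripts near 1 CPM.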

Other observations

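Families of translation and respiration were added after values were seen. Of 81 ribosomal protein transcripts, 80 had a positive difference (AP_1h minus PLA_1h), 31 lay above PLA_1h without overlap and none below, beside 14.2% and 16.8% of all members, and the median was 0.29, with medians from 0.09 to 0.56 over leaving out each library. Of 77 transcripts of oxidative phosphorylation subunits, 2 had a positive difference, 15 lay below PLA_1h without overlap, near the 16.8% of all members, and none above, and the median was -0.53, which was -0.01 without PLA_1h library 2. Proteasome subunits had 27 of 37 members positive and a median of 0.06 at 1 h, and of 0.76 at 34 d.

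Other single genes were picked for the size of their difference. Padi2, which converts arginine to citrulline in proteins, stood at 40.6 and 46.3 CPM in AP_1h against 413 and 220 CPM in PLA_1h, and Mb, the oxygen store of oxidative fibres, at 7067 and 7719 CPM against 16529 and 18358 CPM. Scd1, a lipogenic desaturase, stood at 466 CPM in PLA_1h library 1 alone, against 17.4 CPM in library 2 and 3.68 and 15.3 CPM in AP_1h.

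Fasting and catabolic genes were further apart at 34 d: Pdk4 was at 1946 and 1094 CPM in AP_34d against 92.4 and 363 CPM in PLA_34d and Ucp3 at 1177 and 528 CPM against 28.3 and 69.7 CPM. Trim63 stood at 1375 and 2296 CPM against 196 and 364 CPM. These genes were picked after their values were seen, and whether the animals had eaten is not given in the sources used here.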
